A study of Homo sapiens with 6 samples.

Results

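The 9 genes described here are brakes of MAP kinase signalling: the phosphatase genes DUSP6, DUSP7, DUSP1, DUSP2, DUSP4, DUSP5, DUSP10 and DUSP16, and SPRED1, which acts further up at RAS. They were chosen by name for that function, and all 9 were found among the 26347 gene identifiers of the count table. The source of RNA, taken 24 h after transfection, was THP-1, a human line established from a monocytic leukaemia. One group of 3 libraries received a miR-125a-5p mimic and the other 3 received a negative control microRNA mimic. All cells were of the same line in the same medium, and the labels name neither a differentiation step nor separate cultures, so the p-values rest on differences among libraries alone, and those may be technical. The series title speaks of macrophages.

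MAP kinases are switched on by phosphorylation of a threonine and a tyrosine in their activation loop. Dual-specificity phosphatases of the MAP kinase type remove both phosphates, and each prefers certain kinases and a certain compartment of the cell. Several are themselves transcribed in response to ERK, so that their RNA forms part of a negative feedback loop. SPRED1 belongs to the Sprouty-type inhibitors and brings the RAS GTPase-activating protein neurofibromin to the membrane. In monocytes and macrophages these brakes are known for limiting the output of inflammatory stimuli.

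A microRNA pairs mainly through its seed, bases 2 to 8, with complementary sites in the 3′ UTR of messenger RNAs. The mature sequence is shown first because the sites that follow are read against it (RefSeq, GRCh38.p14, chr19:51693268-51693291, plus strand, 24 bases). The seed is in capitals.
hsa-miR-125a-5p: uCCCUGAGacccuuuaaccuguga

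The sites were searched in the longest 3′ UTR that GENCODE 29 (GRCh38) annotates for each gene, on the transcript strand. The classes were the 8mer CTCAGGGA, the 7mer-m8 CTCAGGG, the 7mer-A1 TCAGGGA and the 6mer TCAGGG, and each longer class contains the 6mer. A site of 7 or 8 bases was present in 4 of the 9 genes, DUSP6, DUSP7, DUSP5 and SPRED1. Among 12800 tested genes with a searched 3′ UTR, 24.3% had such a site. Longer UTRs have more room for a match, and these 4 ranged from 1118 bases in DUSP5 to 5585 bases in SPRED1, against a median of 1365.5 bases over the searched genes. DUSP4 and DUSP10 had only a 6mer, and DUSP1, DUSP2 and DUSP16 had no match there.

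The 30-base stretches around the sites of DUSP6, DUSP7, DUSP5 and SPRED1 are given 5′ to 3′ on the transcript strand, with the matched bases in capitals. DUSP6 carried 2 sites of the 7mer-A1 class, 306 bases apart in a 3′ UTR of 2022 bases, both in exon 3 of 3 on the minus strand of chromosome 12. They lie at chr12:89348296-89348302 and chr12:89347990-89347996, in the principal transcript, which is 1 of the 3 DUSP6 transcripts with a searched 3′ UTR. Neither site is in the 3′ UTRs of the other transcripts.
DUSP6 first site: tataaaattctTCAGGGAgtgtcacctcaa
DUSP6 second site: aactttttcatTCAGGGAttgattttgact
DUSP7 differed between its transcripts too. Its principal transcript holds a 7mer-A1 at chr3:52049215-52049221, in exon 3 of 3 on the minus strand. The 8mer at chr3:52051706-52051713 is in the longer 3′ UTR of another annotated transcript, so DUSP7 counts as an 8mer gene only through that transcript.
DUSP7 principal transcript: gggggtggcttTCAGGGAttctttagcgca
DUSP7 other transcript: cctagaagactCTCAGGGAcaacccatggg
DUSP5 had a 7mer-m8 at chr10:110510591-110510597, in exon 4 of 4 on the plus strand, and SPRED1 a 7mer-A1 at chr15:38354861-38354867, in exon 7 of 7 on the plus strand.
DUSP5: ttcagacggacCTCAGGGtaggttctcggg
SPRED1: ccttccgccagTCAGGGAgaatttttaaaa

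The libraries held 8256149 to 9356861 counts after the miR-125a-5p mimic and 8423228 to 10257791 after the negative control mimic. In a principal component plot of log2 CPM, control library 1 stood apart on the first axis (38.2, against -16.3 to -1.14 in the other 5), and miR-125a-5p library 3 on the next (-31.1, against -5.24 to 21.5). CPM here use TMM-scaled library sizes, where TMM is the trimmed mean of M-values, except that marker levels use library totals. All 14 monocytic markers averaged at least 1 CPM, led by CSF1R, CD68 and PTPRC. T cell, epithelial and erythroid markers summed to 7, 6 and 5 counts over all 6 libraries, and fibroblast markers to 85, of which COL1A1 had 60 (1.13 CPM on average). Among B cell markers PAX5 averaged 57.0 CPM, whereas MS4A1 and CD79A each had 2 counts in all.

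The comparison asked whether the RNA of these brakes differed after the miR-125a-5p mimic. None of the 8 phosphatases passed: with p-values adjusted over 14731 genes (Benjamini-Hochberg), edgeR's quasi-likelihood test gave 0 higher and 0 lower, where 0.0272% of all tested genes were called. edgeR's likelihood ratio test and limma voom also called 0 of 8, and DESeq2 called 0 of the 5 to which it gave an adjusted p, with none given for DUSP1, DUSP2 and DUSP5. DUSP6 was the 1 member at an unadjusted p under 0.05, on the lower side, by each of these 4 tools. By edgeR 5.92% of all tested genes lay there, 3.22% lower and 2.69% higher. A p above the threshold does not show that a level was equal in both groups. SPRED1 was too low in both groups to be tested. The levels of every member overlapped between the groups, while 11.2% of tested genes had groups that did not overlap, 5.9% lower and 5.31% higher.

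DUSP6 and DUSP7 are the cytoplasmic phosphatases that prefer ERK, and DUSP6 is a standard readout of ERK activity because ERK induces its transcription. DUSP6 had 70.0, 61.5 and 60.6 CPM in miR-125a-5p libraries 1, 2 and 3, against 86.3, 80.2 and 67.4 CPM in control libraries 1, 2 and 3. Only miR-125a-5p library 1 lay above a control library, control library 3. The means were 64.0 ± 5.18 CPM after the miR-125a-5p mimic and 77.9 ± 9.63 CPM after the control mimic (SD, n = 3 each), from raw counts of 506 to 596 and 610 to 879. The log2 fold change was -0.28 (SE 0.12), a level 17.9% lower, with a 95% interval of -30.4% to -3.12% that is not adjusted for the number of genes. The edgeR p was 0.0215, smaller in 426 other genes, and the adjusted p was 0.739. In bulk RNA, fewer cells that express a gene and less RNA per cell cannot be told apart.

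The lower level of DUSP6 did not rest on a single library for its direction. Leaving out each library in turn gave log2 fold changes of -0.38 to -0.21, and -0.21 was the value without control library 1, which had the highest level. Its unadjusted edgeR p did depend on single libraries. It was 0.0714 without miR-125a-5p library 2, 0.0664 without miR-125a-5p library 3, 0.0902 without control library 1 and 0.0624 without control library 2. It was 0.0139 without miR-125a-5p library 1 and 0.00566 without control library 3. The adjusted p lay between 0.419 and 0.992 over the 14 alternatives, which include DESeq2, limma voom and other edgeR settings. The reads of DUSP6 may include those of an antisense gene, AC024909.2, whose exons overlap its own by 1875 bases on the opposite strand, since no source used here says whether counting used strand.

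**Figure D1:**
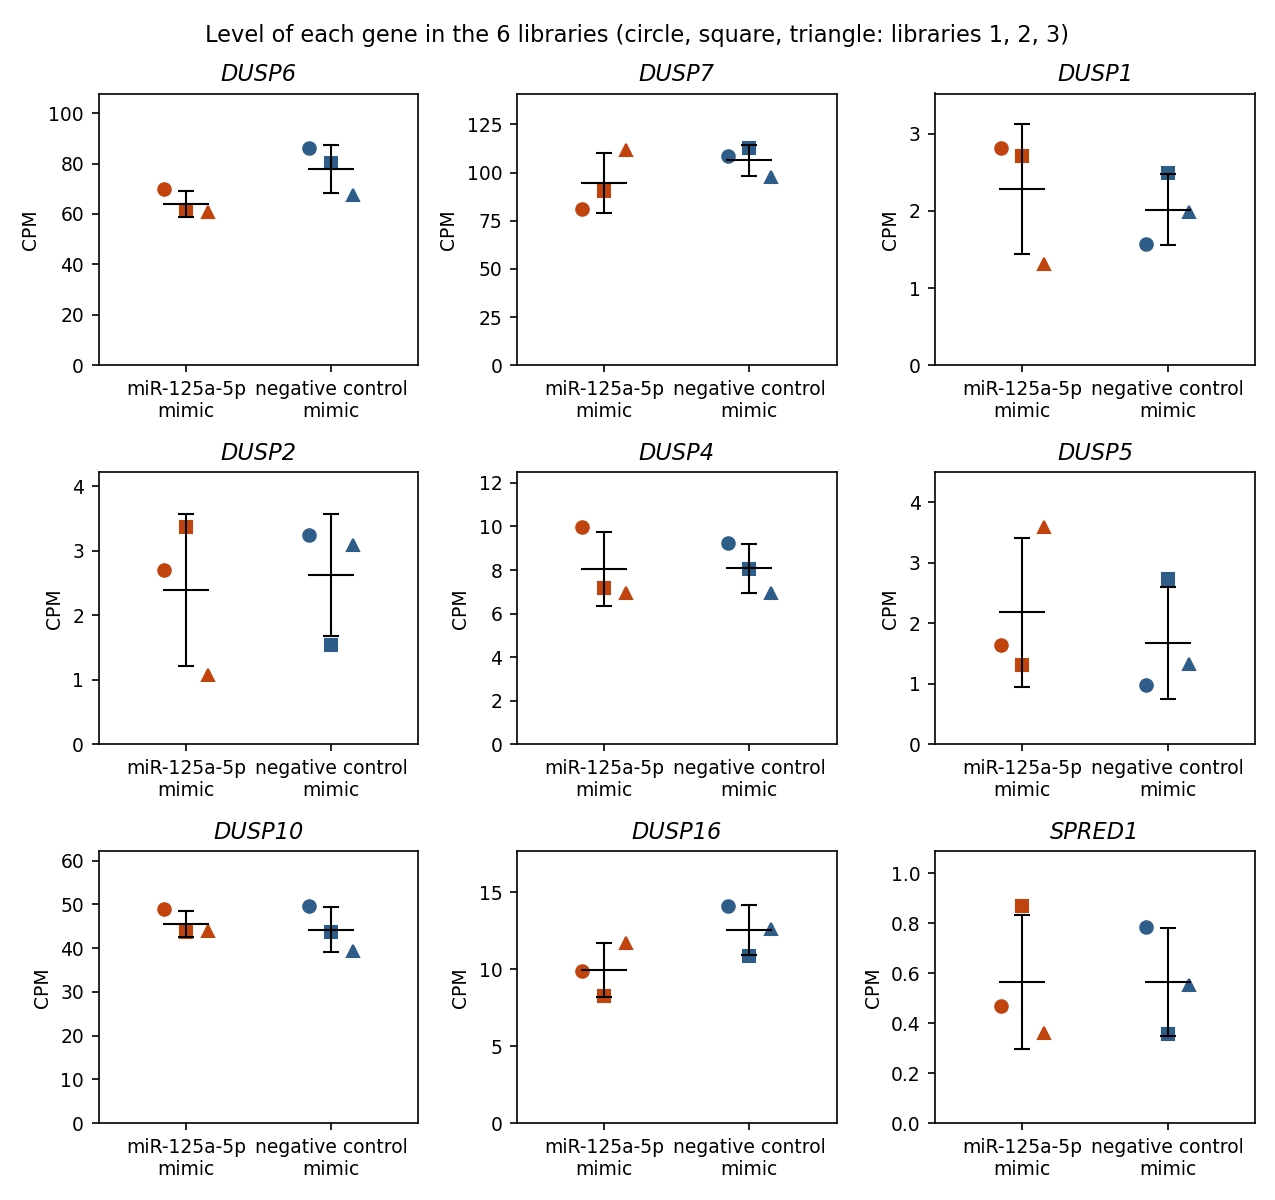
Level of each of the 9 genes in CPM (y axis, from 0) in the 3 miR-125a-5p mimic libraries (orange, left) and the 3 negative control mimic libraries (blue, right), with the mean and SD in black. Circles, squares and triangles mark libraries 1, 2 and 3, and in every panel the groups overlap, DUSP6 by 1 miR-125a-5p library at 70.0 CPM above the lowest control at 67.4 CPM.

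DUSP7 had 81.3, 90.5 and 112 CPM in miR-125a-5p libraries 1, 2 and 3, against 109, 113 and 97.5 CPM in control libraries 1, 2 and 3. miR-125a-5p library 3 stood among the controls and the other 2 stood below them. The log2 fold change was -0.17 (SE 0.11, edgeR adjusted p = 0.898), with a 95% interval of -24.6% to 4.64%. Without miR-125a-5p library 3 the log2 fold change of DUSP7 was -0.31, and the call did not change. DUSP6 and DUSP7 together summed to 159 ± 11.9 CPM after the miR-125a-5p mimic and 184 ± 16.8 CPM after the control mimic (SD, n = 3 each), a change of the mean of -14.0%. The lowest control sum, 165 CPM, was below the highest miR-125a-5p sum, 172 CPM.

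DUSP1, DUSP2, DUSP4 and DUSP5 are the nuclear phosphatases that cells induce on stimulation. DUSP1 restrains p38 and JNK in activated macrophages, DUSP2 is an inducible phosphatase of leukocytes, DUSP4 acts on several MAP kinases and DUSP5 is selective for ERK. In these cells they were scarce, with 9 to 33 raw counts per library for DUSP1, DUSP2 and DUSP5 and 58 to 94 for DUSP4. Their summed level was 14.9 ± 2.12 CPM after the miR-125a-5p mimic and 14.4 ± 0.896 CPM after the control mimic (SD, n = 3 each).

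DUSP4 had 9.98, 7.17 and 6.95 CPM in miR-125a-5p libraries 1, 2 and 3, against 9.22, 8.05 and 6.96 CPM in control libraries 1, 2 and 3. Both groups covered nearly the same range. The log2 fold change of DUSP4 was -0.011 (SE 0.24, edgeR adjusted p = 0.996), with an interval of -30.1% to 40.9%. DUSP1 had 2.82, 2.72 and 1.32 CPM in the miR-125a-5p libraries and 1.57, 2.49 and 1.99 CPM in the control libraries, so that the miR-125a-5p group held both the highest and the lowest value. Its log2 fold change was 0.19 (SE 0.46, edgeR adjusted p = 0.975).

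DUSP2 had 2.70, 3.37 and 1.08 CPM in the miR-125a-5p libraries and 3.24, 1.54 and 3.09 CPM in the control libraries, with a log2 fold change of -0.14 (SE 0.46, edgeR adjusted p = 0.985). DUSP5 had 1.64, 1.30 and 3.59 CPM in the miR-125a-5p libraries and 0.981, 2.72 and 1.33 CPM in the control libraries, with a log2 fold change of 0.39 (SE 0.52, edgeR adjusted p = 0.954). miR-125a-5p library 3 had the lowest DUSP1 and DUSP2 and the highest DUSP5 of all 6 libraries. Without it the log2 fold change was 0.20 for DUSP2 and -0.17 for DUSP5, each of the other sign, and without control library 1 DUSP2 had 0.039. The 95% intervals were -52.9% to 74.9% for DUSP2, -40.5% to 119% for DUSP1 and -37.97% to 176% for DUSP5, so even large changes of these 3 genes were not detectable at this depth.

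DUSP10 and DUSP16 are the phosphatases that prefer JNK and p38. DUSP10 had 49.0, 43.6 and 43.8 CPM in miR-125a-5p libraries 1, 2 and 3, against 49.7, 43.7 and 39.3 CPM in control libraries 1, 2 and 3. The values of the miR-125a-5p libraries lay within the range of the control libraries. The log2 fold change was 0.038 (SE 0.13, edgeR adjusted p = 0.985), and its 95% interval, -14.1% to 22.8%, was the narrowest on the log2 scale after those of DUSP6 and DUSP7. DUSP16 had 9.87, 8.26 and 11.7 CPM in the miR-125a-5p libraries and 14.1, 10.9 and 12.6 CPM in the control libraries. The groups overlapped through miR-125a-5p library 3 and control library 2. Its log2 fold change of -0.34 (SE 0.21, edgeR adjusted p = 0.884) was larger in size than that of DUSP6, with an interval of -41.5% to 7.10%. DUSP16 had no match in its longest 3′ UTR, and a shorter annotated 3′ UTR held a 6mer.

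SPRED1 was nearly silent. It had 4, 8 and 3 raw counts in miR-125a-5p libraries 1, 2 and 3, against 8, 3 and 5 in control libraries 1, 2 and 3. The sums were 15 counts after the miR-125a-5p mimic and 16 after the control mimic. Their ratio, corrected for library size, was 0.996, with an exact 95% interval of 0.459 to 2.15 that covers counting error only. A site in its 3′ UTR could therefore not be set against a measured change.

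**Figure D2:**
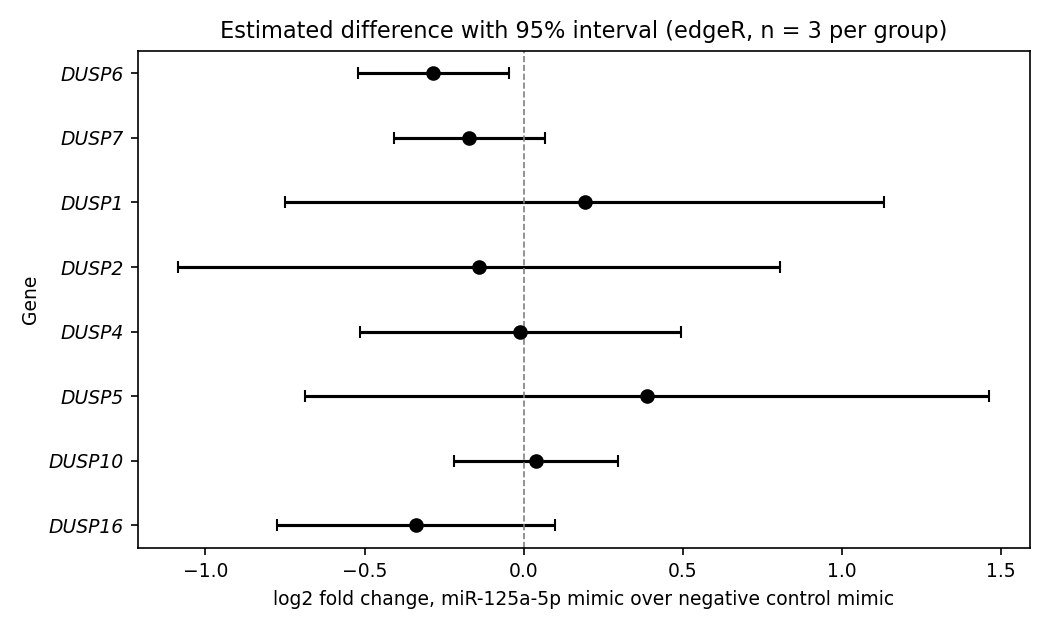
Estimated log2 fold change of the 8 tested phosphatases (x axis, miR-125a-5p mimic over negative control mimic), with 95% intervals from edgeR as bars. The interval of DUSP6 excludes 0 before adjustment over all genes, and those of the other 7 include it.

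Set side by side, sites and differences gave no single order. DUSP6, with 2 sites of the 7mer-A1 class, had -0.28, and DUSP7, with an 8mer or a 7mer-A1 by transcript, had -0.17. DUSP5, with a 7mer-m8, had a positive log2 fold change of 0.39, and DUSP16, with no match in its longest 3′ UTR, had -0.34. DUSP4 and DUSP10, with only a 6mer, had -0.011 and 0.038, and DUSP1 and DUSP2, with no match, had 0.19 and -0.14. The 95% intervals of all these genes but DUSP6 include 0. DUSP5, at 10 to 30 raw counts per library, had -0.17 without miR-125a-5p library 3. The order of these genes by log2 fold change is therefore not resolved. Over the 12800 tested genes with a searched 3′ UTR, the median log2 fold change was -0.065 for genes whose best site was an 8mer. The median was -0.028 for a 7mer-m8, -0.0098 for a 7mer-A1 and 0.011 for a 6mer, against 0.015 for genes with no match.

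Levels between the genes were compared as CPM per kilobase of annotated exon. DUSP7, DUSP10 and DUSP6 were the abundant brakes of this line, at 16.7 ± 2.77, 15.6 ± 1.04 and 13.8 ± 1.12 CPM per kilobase after the miR-125a-5p mimic and 18.8 ± 1.40, 15.2 ± 1.78 and 16.8 ± 2.08 after the control mimic (SD, n = 3 each). Neighbours among these 3 overlapped in both groups, so the order of neighbours is not resolved. In the control libraries DUSP7, at 17.3 to 19.98, lay above DUSP10, at 13.5 to 17.04. In the miR-125a-5p libraries the ranges of DUSP7 and DUSP10 overlapped. With the length of the longest transcript in place of all exons, DUSP7 averaged 30.1 CPM per kilobase over the 6 libraries, in place of 17.8. By that length DUSP10 averaged 16.8 and DUSP6 16.1. DUSP16 followed at 1.74 ± 0.304 after the miR-125a-5p mimic and 2.19 ± 0.283 after the control mimic. DUSP2, DUSP4, DUSP1 and DUSP5 lay between 0.834 and 1.23 CPM per kilobase in the mean of the miR-125a-5p libraries and between 0.641 and 1.36 in that of the control libraries. Neighbours in that order overlapped within each group, and SPRED1 lay below all of them, at 0.0685 CPM per kilobase after the miR-125a-5p mimic and 0.0683 after the control mimic.

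The make-up of the pool was also given as shares of the counts of the 8 phosphatases. Such shares do not depend on how libraries are scaled, but between genes they depend on gene length. DUSP6 took 30.8%, 28.2% and 25.2% of these counts in miR-125a-5p libraries 1, 2 and 3, against 31.5%, 30.6% and 29.3% in control libraries 1, 2 and 3. The mean share was 28.0% ± 2.82 after the miR-125a-5p mimic and 30.4% ± 1.12 after the control mimic (SD, n = 3 each), a difference of -2.40 percentage points with a two-sided exact permutation p of 0.3, where 0.1 is the smallest that 3 against 3 libraries allow. Without miR-125a-5p library 3 the difference was -0.96 points. From counts per kilobase of annotated exon it was -2.90 points over all 6 libraries (two-sided exact permutation p = 0.2). DUSP10 took 21.6%, 19.95% and 18.2% in the miR-125a-5p libraries and 18.1%, 16.7% and 17.1% in the control libraries. These shares of DUSP10 did not overlap, and their difference of 2.61 percentage points was not tested. A share also rises when the other genes fall, and the log2 fold change of DUSP10 itself was 0.038. DUSP7 took 35.8% to 46.4% in the miR-125a-5p libraries and 39.7% to 43.0% in the control libraries. Over the 6 libraries DUSP7, DUSP6 and DUSP10 averaged 41.4%, 29.2% and 18.6% of the raw counts. Per kilobase of annotated exon they averaged 32.5%, 27.9% and 28.2%. The total of the 8 genes was 1935 to 2011 raw counts after the miR-125a-5p mimic and 2084 to 2790 after the control mimic, where control library 1 was the deepest of all. Scaled to library size the sums overlapped, at 218 to 241 CPM after the miR-125a-5p mimic and 230.2 to 274 CPM after the control mimic.

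**Figure D3:**
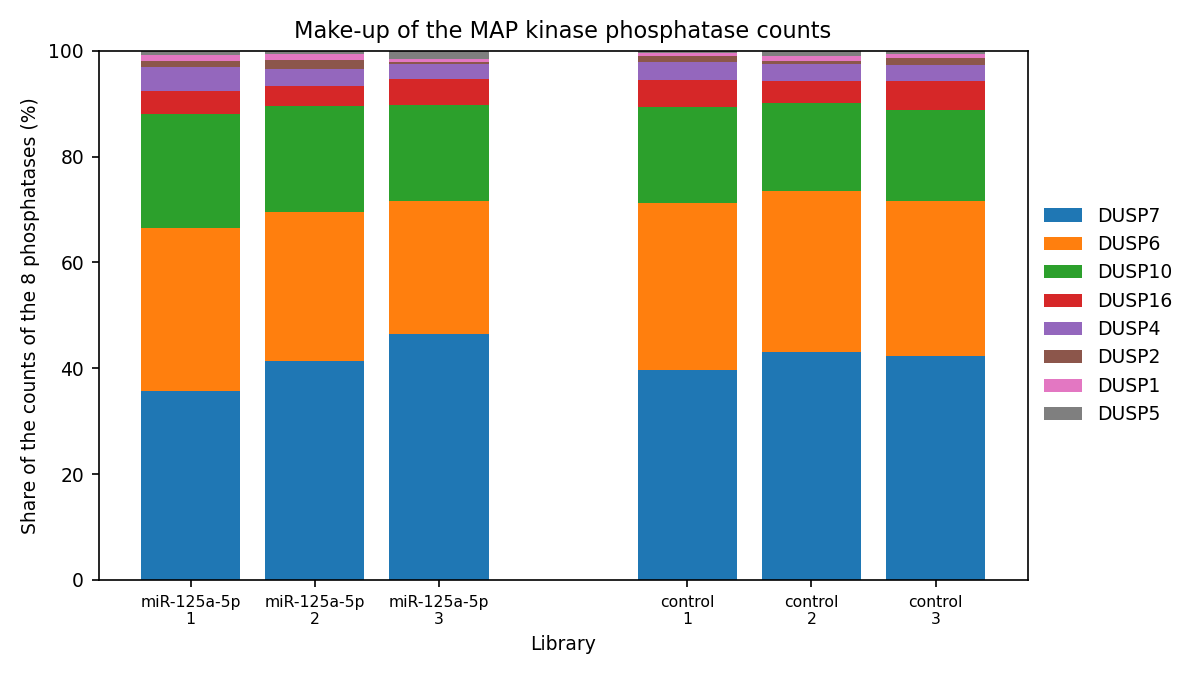
Share of each gene (y axis, percent) in the summed raw counts of the 8 phosphatases, for the 3 miR-125a-5p mimic libraries (left) and the 3 negative control mimic libraries (right). DUSP7, DUSP6 and DUSP10 make up most of every bar, and the DUSP6 band runs from 25.2% to 30.8% on the left and from 29.3% to 31.5% on the right.

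The rest of the pathway was described from lists of known components. By edgeR, 0 genes passed in any of the 6 lists after adjustment over all genes, and DESeq2, the likelihood ratio test and limma voom also called 0, although DESeq2 gave no adjusted p to 1 of the 83 genes tested. At an unadjusted p under 0.05, edgeR had 4 of the 83 genes, DUSP3, MKNK2, SOS2 and RPS6KA1, all with negative log2 fold changes. DESeq2 and limma voom also had 4, and the likelihood ratio test 5. By edgeR 5.92% of all tested genes lay under that p, 3.22% lower and 2.69% higher. All tested genes had a median log2 fold change of 0.0011, and 49.8% of them were negative. Among the other dual-specificity and related phosphatases, 9 of 13 were tested, 4 were negative and the median was 0.057. DUSP3, a small phosphatase that acts on ERK and JNK, had the smallest p of this list. It had 105, 108 and 115 CPM in miR-125a-5p libraries 1, 2 and 3, against 144, 136 and 137 CPM in control libraries 1, 2 and 3, so every miR-125a-5p library lay below every control library, as in 5.9% of tested genes. The log2 fold change of DUSP3 was -0.35 (SE 0.096, unadjusted p = 0.00124, edgeR adjusted p = 0.393), and its best site was a 7mer-m8. DUSP9 had a log2 fold change of -0.45 (SE 0.42, edgeR adjusted p = 0.930), at 2.05 CPM after the miR-125a-5p mimic and 2.79 CPM after the control mimic.

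Of the other Sprouty, Spred and RAS GTPase-activating genes 12 of 15 were tested, 7 were negative and the median log2 fold change was -0.0068. DAB2IP, a RAS GTPase-activating protein, had -0.67 (SE 0.42, edgeR adjusted p = 0.884), at 2.19 CPM after the miR-125a-5p mimic and 3.51 CPM after the control mimic. SPRY4, an ERK-induced Sprouty, had 0.39 (SE 0.28, edgeR adjusted p = 0.906). All 27 genes of the RAS-RAF-MEK-ERK cascade were tested, 18 were negative and the median was -0.040. At an unadjusted edgeR p under 0.05, 3 were lower and 0 higher, where 3.22% of all tested genes were lower and 2.69% higher. MKNK2, a kinase downstream of ERK that phosphorylates the translation factor eIF4E, had 21.3 ± 3.05 CPM after the miR-125a-5p mimic and 29.4 ± 4.81 CPM after the control mimic (SD, n = 3 each; log2 fold change -0.47, SE 0.16, edgeR adjusted p = 0.615). SOS2, an exchange factor that loads RAS with GTP, had 38.1 ± 3.39 CPM after the miR-125a-5p mimic and 46.8 ± 3.86 CPM after the control mimic (SD, n = 3 each; log2 fold change -0.30, SE 0.13, edgeR adjusted p = 0.787). For both genes the groups did not overlap. RPS6KA1, a ribosomal S6 kinase activated by ERK and named after its value was seen, had -0.29 (SE 0.12, edgeR adjusted p = 0.790).

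In the p38 cascade 15 of 15 genes were tested, 7 were negative and the median log2 fold change was 0.0081. RPS6KA5, a nuclear kinase activated by p38 and ERK, had -0.69 (SE 0.33, edgeR adjusted p = 0.843), and MAP3K7, the kinase TAK1 that links receptors to p38 and JNK, had 0.13 (SE 0.10, edgeR adjusted p = 0.916). In the JNK cascade 12 of 14 were tested, 7 were negative and the median was -0.098. MAP2K7, which phosphorylates JNK, had -0.29 (SE 0.17) and the JNK scaffold MAPK8IP3 -0.38 (SE 0.22), both with an edgeR adjusted p of 0.882.

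Transcripts that depend on ERK are a readout of the kinase that DUSP6 and DUSP7 prefer. Of 15 listed besides DUSP4 and DUSP6, 11 were tested, 5 were negative and the median log2 fold change was 0.061. At an unadjusted edgeR p under 0.05, 0 were higher and 0 lower. SPRY2, SPRY4 and SPRED2 stand in the Sprouty list too. CCND1, cyclin D1, had 43.8, 36.7 and 31.6 CPM in miR-125a-5p libraries 1, 2 and 3, against 36.6, 27.9 and 27.4 CPM in control libraries 1, 2 and 3, with overlapping groups. Its log2 fold change was 0.28 (SE 0.15, edgeR adjusted p = 0.857). ETV5, a transcription factor induced by ERK, had 0.20 (SE 0.12, edgeR adjusted p = 0.884).

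**Figure D4:**
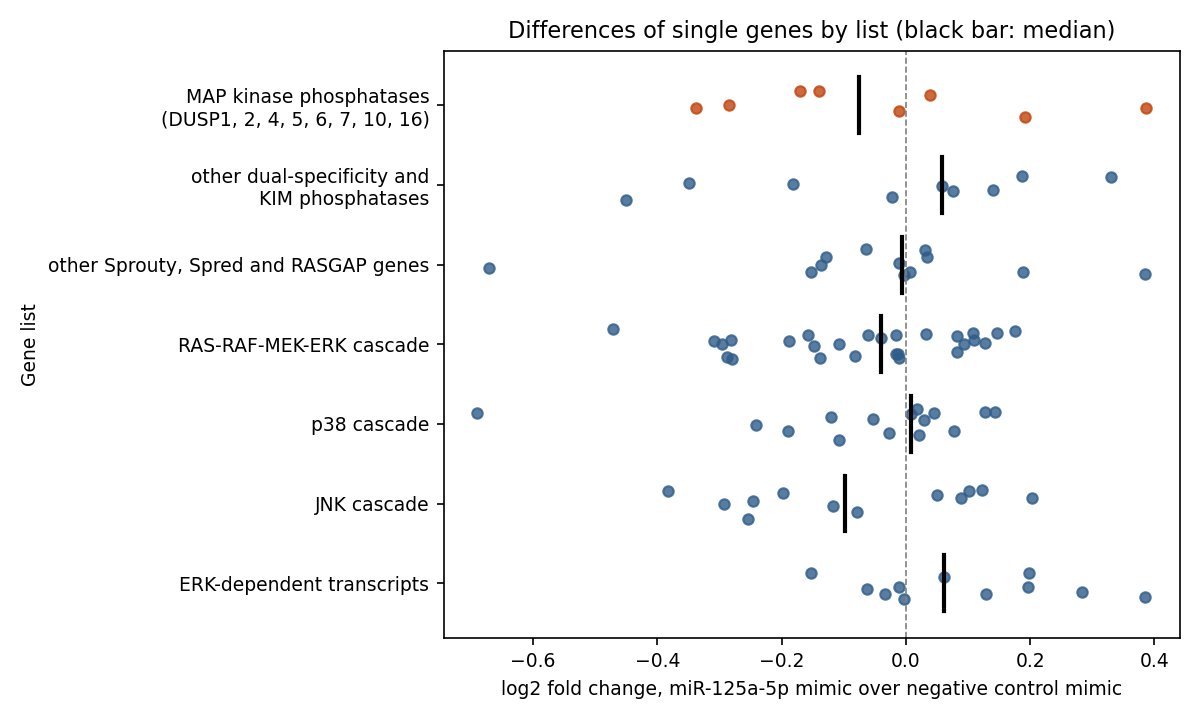
Log2 fold change (x axis, miR-125a-5p mimic over negative control mimic) of each tested gene, by list, with the 8 phosphatases described here in orange at the top and the 6 other lists in blue. Black bars are medians, which lie between -0.098 for the JNK cascade and 0.061 for ERK-dependent transcripts, and points fall on both sides of 0 in every list.

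Genes whose levels followed DUSP6 were sought by Pearson correlation of log2 CPM over the 6 libraries, among 11592 other genes with a mean of at least 5 CPM. The 5 highest were C3AR1, the receptor of the complement fragment C3a (r = 0.998), PSMA3-AS1, an antisense RNA whose reads cannot be told from those of overlapping genes (0.997), GBP4, an interferon-induced GTPase (0.993), PAX5, a transcription factor of B cells (0.991), and PRKRA, an activator of the kinase PKR (0.990). With 6 points, 154 genes had r above 0.9, and these points share the same libraries, groups and depth. C3AR1 had 18.1, 13.0 and 11.9 CPM in miR-125a-5p libraries 1, 2 and 3, against 32.4, 25.3 and 16.02 CPM in control libraries 1, 2 and 3 (log2 fold change -0.78, edgeR adjusted p = 0.393). As for DUSP6, control library 1 was highest and miR-125a-5p library 1 lay above control library 3. PAX5, a B cell marker, had 58.5, 43.3 and 40.0 CPM in miR-125a-5p libraries 1, 2 and 3, against 82.2, 69.3 and 49.5 CPM in control libraries 1, 2 and 3, while MS4A1 and CD79A were near 0 as given above. The part of B cell markers in the level of DUSP6 was not tested.

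The other phosphatases followed DUSP6 less closely over the same 6 libraries. The correlation was 0.64 for DUSP4, 0.55 for DUSP16, 0.49 for DUSP10 and 0.34 for DUSP7, the other cytoplasmic ERK phosphatase. It was 0.19 for DUSP2, -0.011 for DUSP1 and -0.33 for DUSP5, whose counts were low. DUSP6 stood to DUSP7 at 0.861, 0.679 and 0.542 raw counts per count in miR-125a-5p libraries 1, 2 and 3, against 0.793, 0.710 and 0.691 in control libraries 1, 2 and 3, so the miR-125a-5p libraries held both the highest and the lowest ratio.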

How the data were processed

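The authors deposited unnormalized whole-number counts per gene for 6 libraries. The build hg19 and the tools TopHat, bcl2fastq and edgeR come from the submitters' processing notes. Which counter, annotation and strand setting were used is not given in the sources used here. Identifiers were named through the RefSeq gene table of GRCh38.p14 (26204 of 26347), and 0 columns belonged to no library. The filter filterByExpr left 14731 of the 21274 genes that had a count. Tests after TMM scaling used edgeR 4.0.16 under R 4.3.3 (glmQLFit and glmQLFTest, no covariate), with Benjamini-Hochberg adjustment and a threshold of 0.05. Log2 CPM used a prior count of 2. SE is the size of the log2 fold change divided by the square root of F. Intervals of 95% use the total degrees of freedom of the test. These are the residual ones plus the prior ones that edgeR estimates across genes. Steps were tested on simulated counts.

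One B cell marker is not reported here. Members, lists and tests were chosen with earlier results of these data known. The text names all members, the 2 smallest p of each list and any called gene, and the 5 genes most like DUSP6. GENCODE 29 gave exon lengths and 3′ UTRs of at least 20 bases, on GRCh38, not the build of the counts. Alternatives were DESeq2 1.42.0, limma 3.58.1 voom, edgeR's likelihood ratio test, other scalings, no filter, each library left out and a replicate block. A chi-square statistic per gene was above sampling noise for every pair of libraries (4.00 to 13.5), so all 6 counted as separate libraries. The statistic cannot tell separate cultures from separate preparations of the same culture.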

Additional observations from a re-analysis of the deposited data

How the results depend on the processing

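In each of the 14 alternatives run on the fit, 0 members were called. The 6 pathway lists were counted by DESeq2, the likelihood ratio test, limma voom and with each library left out, with 0 calls; the other alternatives were not run on them. DUSP6, DUSP7, DUSP16 and DUSP1 kept the sign of their log2 fold change in all 14. Signs of the others turned with 1 library left out, where the log2 fold change was -0.48 to 0.20 for DUSP2, -0.20 to 0.095 for DUSP4, -0.17 to 0.91 for DUSP5 and -0.039 to 0.13 for DUSP10; the value of DUSP6 was -0.38 to -0.21. Over all genes, 0 higher and 4 lower became 11 and 41 with no count filter, 2 and 11 by DESeq2, and 4 and 17 by the likelihood ratio test, and with 1 library left out 0 to 2 were higher and 3 to 14 lower; the cause was not tested. The replicate block gave 9 lower genes and a log2 fold change of -0.28 for DUSP6. The labels give same-numbered libraries only a common number. Correlations of deviations between them were -0.016 to 0.056, and not every library correlated best with its own number. Such weak correlations cannot show whether same-numbered libraries shared a batch. Members with a site of 7 or 8 bases numbered 3 in the shortest 3′ UTR, where DUSP6 had none, and 4 in the principal transcript (a search chosen after seeing the data), as against 4 in the longest. Depth limits DUSP1, DUSP2, DUSP5 and SPRED1.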
